A study of Mus musculus with 12 samples.

Results

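The suppressors of cytokine signalling (SOCS) form a family of 8 genes in the mouse, Cish and Socs1 to Socs7. The members were taken by gene name, and all 8 were present in both tables, among 15361 genes of a kidney table and 18145 genes of a table of F4/80+ cells. The data were RNA sequencing counts from 12 libraries of polyadenylated RNA in 4 groups of 3 biological replicates. The groups were Trp/Trp F4/80+ cells, Arg/Arg F4/80+ cells, Trp/Trp whole kidney and Arg/Arg whole kidney. The mice had been edited with CRISPR-Cas9 and were homozygous for the Trp-encoding minor allele or the Arg-encoding major allele of a coding polymorphism in Sh2b3, an adaptor gene whose product LNK restrains cytokine receptor signalling in blood cells. Every animal had received angiotensin II, a hormone that raises blood pressure, for 4 weeks, so no group was without it, and the allele was present in every cell type. F4/80 is the Adgre1 product, a macrophage surface antigen in the mouse. Cells were obtained from other kidneys than the whole-kidney samples by a Percoll gradient and anti-F4/80 microbeads. The labels gave no age, sex or strain, and whether animals were pooled is not given in the sources used here.

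SOCS proteins are feedback inhibitors. A cytokine receptor activates JAK kinases, these phosphorylate STAT transcription factors, and STATs switch on Cish, Socs1, Socs2 and Socs3, whose proteins bind the receptor or the kinase through an SH2 domain and direct bound proteins to a cullin-based ubiquitin ligase through a C-terminal SOCS box. Socs4, Socs5, Socs6 and Socs7 have the same architecture but are better known for acting on epidermal growth factor, KIT and insulin signalling than as STAT targets.

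CPM denotes a gene's count divided by the library's nuclear protein-coding counts, scaled to the same total in each library. Libraries held 6.88 to 11.1 M of these (M for mega) in F4/80+ cells and 17.8 to 49.99 M in kidney. This denominator was used because mitochondrial transcripts took 70.1 to 83.6% of all counts in the F4/80+ table and 7.86 to 9.35% in the kidney table. These percentages are over unlike gene sets. Nuclear protein-coding genes were 13845 of 18145 genes in the F4/80+ table and 15348 of 15361 in the kidney table. Mitochondrial ribosomal RNA was in the F4/80+ table alone. As a list, the macrophage markers were not enriched in the F4/80+ libraries. Of 13 tested macrophage and monocyte genes, 3 were called higher than in kidney and 7 lower by the sample type test described below. Adgre1 itself was at 1.26 to 16.7 CPM in F4/80+ libraries and 4.11 to 8.32 CPM in kidney libraries, and the summed macrophage and monocyte list (13 of 14 genes in the F4/80+ table, all 14 in the kidney table) was at 42.1 to 220 CPM in F4/80+ libraries and 148 to 274 CPM in kidney libraries. Proximal tubule markers, 13 of 13 in both tables, summed to 17368 to 54348 CPM in F4/80+ libraries and 31502 to 37680 CPM in kidney libraries, and 12 of 12 markers of the distal nephron and collecting duct to 7455 to 25778 CPM in F4/80+ libraries and 7947 to 8684 CPM in kidney libraries. The F4/80+ libraries are therefore called F4/80+ preparations below, with no claim that they are pure macrophages. Sh2b3, the edited gene, was detected in every library, at 18.8 to 31.6 CPM in Trp/Trp and 19.8 to 24.3 CPM in Arg/Arg F4/80+ preparations, and at 37.5 to 42.2 CPM in Trp/Trp and 31.2 to 40.2 CPM in Arg/Arg kidneys.

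The comparison of sample types asked how the family differed between the F4/80+ preparations and whole kidney. Socs3 was the dominant member of the F4/80+ preparations and a minor one in kidney, Socs2 and Cish were also higher in the F4/80+ preparations, and Socs7 was lower. Over all 12 libraries, edgeR's quasi-likelihood test with genotype as a term, Benjamini-Hochberg adjusted over 13578 genes, called 4 of the 8 members higher and 1 lower in F4/80+ preparations. This was read against a background in which 32.4% of all genes tested were called higher and 31.8% lower, so the number of members called was close to that of genes at large. The median log2 fold change of the members was 0.36, and that of all genes was -0.0037.

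**Figure D1:**
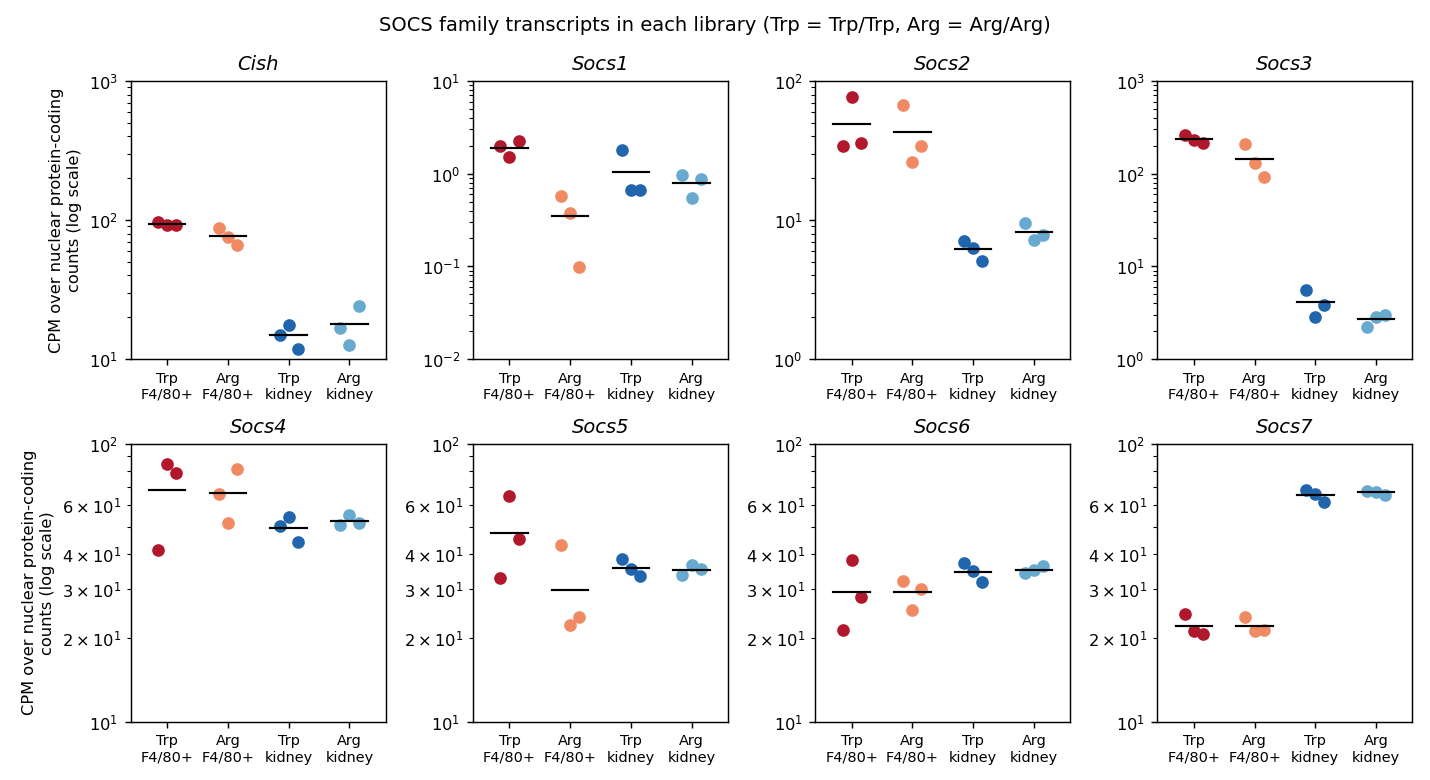
CPM over nuclear protein-coding counts (log axis) of each SOCS family member in every library. Points are libraries and horizontal lines are means of 3 libraries, with Trp/Trp and Arg/Arg F4/80+ preparations left of Trp/Trp and Arg/Arg kidneys. Socs3 lies between 91.5 and 262 CPM in F4/80+ preparations and between 2.23 and 5.58 CPM in kidney, whereas Socs7 is lower in every F4/80+ library than in any kidney library.

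Socs3, whose protein binds gp130 and JAK kinases and limits IL-6 family signalling, showed the widest gap. It was at 262, 230 and 213 CPM in Trp/Trp and 211, 131 and 91.5 CPM in Arg/Arg F4/80+ preparations, against 5.58, 2.83 and 3.82 CPM in Trp/Trp and 2.23, 2.84 and 3.01 CPM in Arg/Arg kidneys. The lowest F4/80+ library lay far above the highest kidney library. The log2 fold change was 5.91 ± 0.21 (SE), a 60.0-fold higher level (edgeR adjusted p = 9.99e-11), and it was 5.94 ± 0.27 within Trp/Trp libraries and 5.92 ± 0.29 within Arg/Arg libraries. Raw counts of Socs3 were 935 to 2923 per F4/80+ library and 68 to 193 per kidney library.

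Cish, the founding member of the family and a target of STAT5 downstream of growth hormone, erythropoietin and interleukin receptors, was at 97.5, 92.7 and 91.5 CPM in Trp/Trp and 88.1, 74.9 and 65.8 CPM in Arg/Arg F4/80+ preparations. In kidneys it was at 15.01, 17.7 and 11.9 CPM (Trp/Trp) and 16.7, 12.5 and 23.9 CPM (Arg/Arg). The sample types did not overlap, and the log2 fold change was 2.50 ± 0.16 (SE), or 5.67-fold higher (edgeR adjusted p = 1.11e-08). The annotation places a pseudogene, Gm17040, and an antisense gene, Gm17041, on the opposite strand. Gm17041 lies within the bounds of Cish, and Gm17040 (chr9:107292435-107297192) overlaps Cish in part. Whether reads were counted by strand is not given in the sources used here. Without strand, reads of these genes and of Cish could not be told apart where they overlap. Gm17040 was at 0.66 to 3.32 CPM in the F4/80+ table.

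Socs2, which restrains growth hormone receptor signalling, was at 34.2, 76.9 and 36.0 CPM in Trp/Trp and 67.6, 26.3 and 34.2 CPM in Arg/Arg F4/80+ preparations, against 7.11, 6.30 and 5.06 CPM in Trp/Trp and 9.57, 7.14 and 7.83 CPM in Arg/Arg kidneys. Each genotype had 1 F4/80+ library well above its other 2, and every F4/80+ library was above every kidney library. The log2 fold change was 2.78 ± 0.23 (SE), a 6.86-fold higher level (edgeR adjusted p = 1.75e-07).

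Socs7, whose protein binds insulin receptor substrates and the adaptor NCK, went the other way. It was at 24.3, 21.1 and 20.6 CPM in Trp/Trp and 23.8, 21.2 and 21.3 CPM in Arg/Arg F4/80+ preparations, against 68.0, 66.0 and 61.8 CPM in Trp/Trp and 67.8, 67.1 and 65.3 CPM in Arg/Arg kidneys. It was the steadiest member, with a coefficient of variation of 1.94 to 9.10% within groups, and the sample types did not overlap. The log2 fold change was -1.45 ± 0.08 (SE), which made it 2.74-fold lower in F4/80+ preparations (edgeR adjusted p = 4.26e-09).

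Socs4, whose product promotes degradation of the epidermal growth factor receptor, was called higher by a small margin, with a log2 fold change of 0.51 ± 0.15 (SE) and an edgeR adjusted p of 0.00961. Its F4/80+ libraries ran from 41.4 through a median of 72.2 to 84.2 CPM and its kidney libraries from 44.4 through 51.5 to 55.5 CPM. The lowest library of all was a Trp/Trp F4/80+ preparation, so the sample types overlapped. The call was lost within Trp/Trp libraries alone (edgeR adjusted p = 0.0940) and by an exact two-sided permutation test of 6 against 6 libraries (adjusted p = 0.0938).

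Socs1, Socs5 and Socs6 did not pass the test. Socs5, which like Socs4 acts on the epidermal growth factor receptor, had a log2 fold change of 0.19 ± 0.16 (SE, edgeR adjusted p = 0.318), with 22.2 to 65.1 CPM in F4/80+ preparations and 33.6 to 38.4 CPM in kidney. Socs6, which binds KIT and the insulin receptor, had -0.14 ± 0.11 (SE, edgeR adjusted p = 0.287), with 21.4 to 38.2 CPM in F4/80+ preparations and 31.9 to 37.1 CPM in kidney. For both genes the F4/80+ range enclosed the kidney range. Socs1, a direct inhibitor of JAK kinases in interferon signalling, had 0.22 ± 0.44 (SE, edgeR adjusted p = 0.681), and was at 0.098 to 2.23 CPM in F4/80+ preparations and 0.54 to 1.79 CPM in kidney. The genotypes differed in sign, with 0.94 ± 0.48 within Trp/Trp libraries and -1.03 ± 0.61 within Arg/Arg libraries (SE, edgeR adjusted p = 0.134 and 0.195).

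Without overlap between sample types were 3 members that were higher in F4/80+ preparations (Socs2, Socs3 and Cish) and 1 that was lower (Socs7), against 15.2% of all genes tested for higher and 27% for lower. In bulk samples, fewer cells of a type and less RNA per cell cannot be told apart. Sample type also cannot be told apart from tissue handling, since only the F4/80+ preparations went through the gradient and beads, nor from the separately deposited tables. These differences are relative to nuclear protein-coding RNA. Relative to all counts in each table, which include mitochondrial ribosomal RNA in the F4/80+ table alone, Socs3 was 12.2-fold, Socs2 1.30-fold and Cish 1.13-fold higher in F4/80+ preparations, whereas Socs4 was 3.72-fold lower there.

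**Figure D2:**
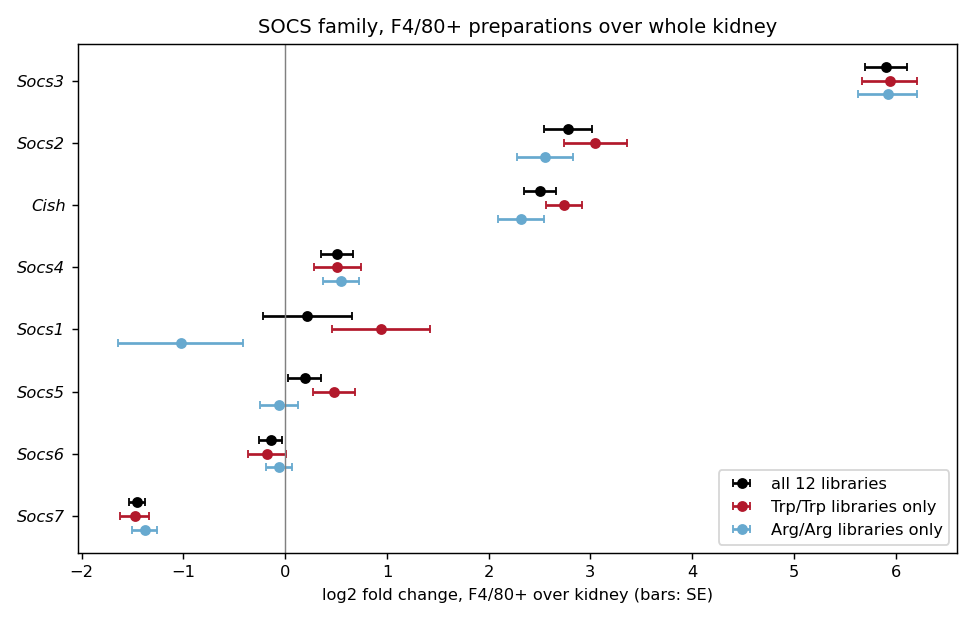
Log2 fold change of each SOCS family member, F4/80+ preparations over whole kidney, with bars of 1 SE. Values from all 12 libraries are shown with those from Trp/Trp libraries only and Arg/Arg libraries only. Socs3, Socs2, Cish, Socs4 and Socs7 keep their direction in both genotypes, whereas Socs1 is at 0.94 in Trp/Trp and -1.03 in Arg/Arg libraries.

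A set of 24 immediate early and dissociation-response genes, all in both tables, also differed between sample types. Its summed level was 8430 to 15761 CPM in F4/80+ preparations and 1038 to 1231 CPM in kidney, and 22 of the 24 were called higher in F4/80+ preparations (2 lower), with a median log2 fold change of 3.34. Fos, an immediate early transcription factor gene, was at 1678 to 3346 CPM in F4/80+ preparations and 0.76 to 1.73 CPM in kidney. Cell type lists differed too. Endothelial markers summed to 177 to 340 CPM in F4/80+ preparations and 541 to 728 CPM in kidney. Podocyte markers summed to 153 to 313 CPM in F4/80+ preparations and 454 to 696 CPM in kidney. Of 12 distal nephron and collecting duct markers, 9 were called higher in F4/80+ preparations and 2 lower. The part of immediate early induction and of cell composition in the Socs3, Cish and Socs2 differences was not tested.

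**Figure D3:**
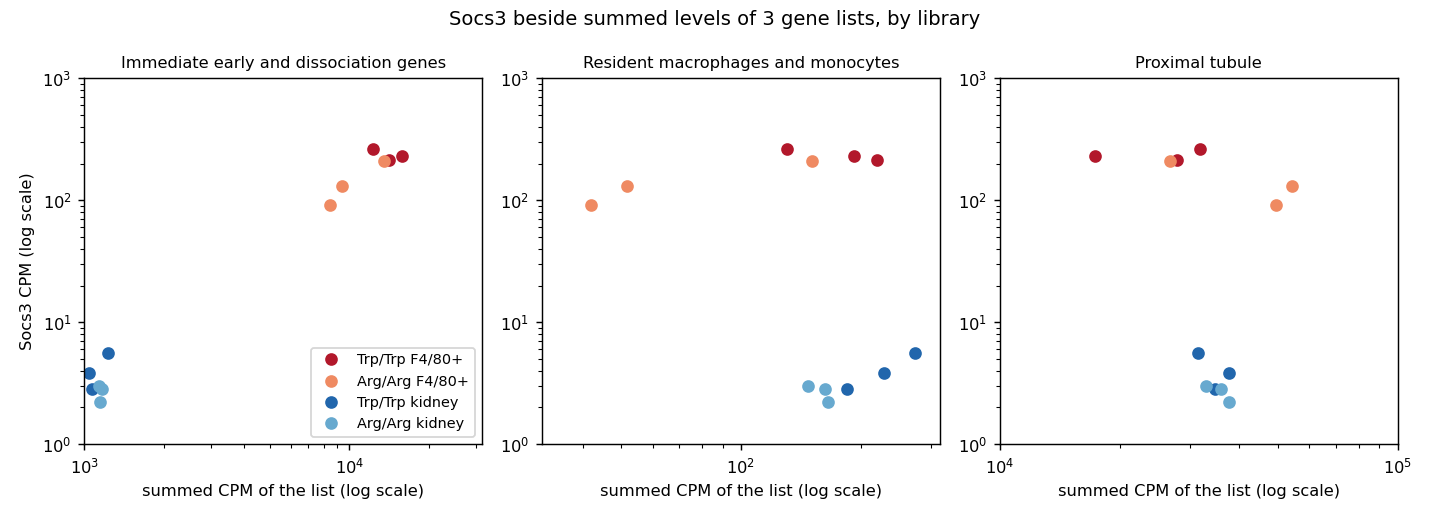
Socs3 CPM (vertical log axis) beside the summed CPM (horizontal log axis) of 3 gene lists, by library, coloured by group. The F4/80+ preparations lie at 8430 to 15761 CPM of immediate early and dissociation genes and the kidneys at 1038 to 1231 CPM, whereas the sample types overlap in macrophage and in proximal tubule markers. Endothelial and podocyte markers, in which the sample types do not overlap, are not drawn.

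To compare members with each other, CPM were divided by the exon length of each gene in kilobases (union of annotated exons, which can exceed the transcript in use). In F4/80+ preparations Socs3 stood first at 65.6 ± 22.4 CPM per kb (SD, n = 6), followed by Cish at 13.3 ± 1.89, Socs4 at 9.76 ± 2.53, Socs5 at 6.04 ± 2.50, Socs2 at 4.81 ± 2.20, Socs7 at 3.04 ± 0.22, Socs6 at 2.57 ± 0.51 and Socs1 at 0.39 ± 0.31 CPM per kb. The gap between Socs3 and Cish and that between Socs6 and Socs1 were clear of overlap, while the libraries of all other neighbours in this order overlapped. In kidney the order was led by Socs7 at 9.09 ± 0.32 CPM per kb, then Socs4 at 7.46 ± 0.57, Socs5 at 5.54 ± 0.28 and Socs6 at 3.08 ± 0.16 (SD, n = 6), each apart from the one before it. Cish at 2.54 ± 0.68, Socs3 at 1.17 ± 0.41, Socs2 at 0.75 ± 0.16 and Socs1 at 0.31 ± 0.16 CPM per kb closed the order, with ranges that overlapped between neighbours, Socs6 and Cish included. The kidney profile was thus headed by the 4 members not known chiefly as STAT targets, and the F4/80+ profile by Socs3 and Cish. Exon length came from an annotation whose coordinates matched the tables for 7 members; the Socs7 entry had another version and start.

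Summed over the family, the F4/80+ preparations held 479 ± 105 CPM and kidneys 216 ± 11.51 CPM (SD, n = 6). Cish and Socs1 to Socs3 made up 66.5% of the family sum in F4/80+ preparations (55.1 to 76.7%) and 12.8% in kidney (10.6 to 15.9%). Socs3 alone took 38.8% in F4/80+ preparations (26.3 to 50.8%) and 1.57% in kidney (1.03 to 2.49%). The sum of Socs4 to Socs7 was 157 ± 33.7 CPM in F4/80+ preparations and 188 ± 8.41 CPM in kidney, so the difference in the family sum lay in the first 4 genes.

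The promoters of Cish and Socs3 are shown because these 2 STAT-target genes headed the F4/80+ profile and their start regions hold the palindromic STAT consensus TTCNNNGAA, which reads the same on both strands. RefSeq promoter sequences (GRCm38.p6, 250 bases before to 50 after the start) were on hand for Cish, Socs1, Socs3 and Socs4. Each stretch below is 30 bases, 5′ to 3′ on the gene's strand, with the matches in capitals.
Cish: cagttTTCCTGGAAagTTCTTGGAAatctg
Socs3: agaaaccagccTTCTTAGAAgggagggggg
The Cish stretch lies at chr9:107296654-107296683 on the plus strand, with matches that begin at positions 1 and 12, counted from 1 at the RefSeq start, which lies inside the bounds of Cish in the tables. The Socs3 stretch lies at chr11:117969502-117969531 on the minus strand, with a match that begins at position -154, before the RefSeq start. This stretch also lies inside the bounds of Socs3 in the tables (chr11:117966079-117970047). Socs1 and Socs4 had 0 matches in this window. Of all 32851 promoters in the table, 2726 (8.3%) held at least 1 match and 150 (0.457%) held at least 2. A match describes the letters only.

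Within F4/80+ preparations the comparison of genotypes asked whether the Trp allele changed the family. No member was called, as none of the 15225 genes tested passed with edgeR's quasi-likelihood test (smallest adjusted p = 0.605), although 1224 genes (8.04%) had an unadjusted p under 0.05 and DESeq2 called 14 genes, 0 of them members. Without overlap between genotypes were Socs1, Socs3 and Cish, all higher in Trp/Trp, which is 3 of 8 members against 10.5% of all genes tested (7.19% higher). All 8 members passed the filter on low counts, Socs1 through its Trp/Trp libraries alone. Leaving Socs1 aside for that reason, 2 of 7 members were without overlap. Socs1 and Socs3 were the members with an unadjusted p under 0.05.

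Socs1 had 22, 13 and 17 counts in Trp/Trp F4/80+ preparations and 4, 3 and 1 counts in Arg/Arg preparations, or 1.97, 1.53 and 2.23 CPM against 0.58, 0.38 and 0.098 CPM. The highest Arg/Arg library was below the lowest Trp/Trp library. The log2 fold change was 2.37 ± 0.66 (SE, edgeR adjusted p = 0.605), and 2.36 with no filter (edgeR adjusted p = 0.598). Pooled, 52 counts in Trp/Trp and 8 in Arg/Arg preparations gave a ratio of 5.96 per unit depth, with an exact 95% interval of 2.81 to 14.5 that covers counting error only. The interval leaves out the spread between replicates, and Socs1 passed the filter through its Trp/Trp libraries alone, so it is not a test of genotype. Leaving out any 1 library gave a log2 fold change of 1.90 to 2.78. In the authors' deposited table Socs1 had a log2 fold change of 2.37 and a p of 0.00475, with no adjusted p.

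For Socs3 the genotypes were separated by a narrow margin, 213 CPM in the lowest Trp/Trp against 211 CPM in the highest Arg/Arg preparation. Socs3 averaged 235 ± 24.9 CPM in Trp/Trp and 144 ± 60.9 CPM in Arg/Arg preparations (SD, n = 3 each), a log2 fold change of 0.62 ± 0.27 (SE, edgeR adjusted p = 0.609). Cish averaged 93.9 ± 3.15 CPM in Trp/Trp and 76.3 ± 11.2 CPM in Arg/Arg preparations (SD, n = 3 each), a log2 fold change of 0.18 ± 0.20 (SE, edgeR adjusted p = 0.895). For both genes Arg/Arg replicate 1 lay nearest to the Trp/Trp libraries. Without that library the log2 fold change of Socs3 was 0.84 (edgeR adjusted p = 0.135), that of Socs1 2.78 (adjusted p = 0.115) and that of Cish 0.18 (adjusted p = 0.807). Other omissions lowered them. Without Arg/Arg replicate 3 the log2 fold change was 0.40 for Socs3, 1.90 for Socs1 and 0.12 for Cish. Without Trp/Trp replicate 1 that of Socs3 was 0.46 (edgeR adjusted p = 0.565). No member was called with any 1 library left out.

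Socs5 was at 32.8, 65.1 and 45.3 CPM in Trp/Trp and 43.3, 22.2 and 23.9 CPM in Arg/Arg F4/80+ preparations, a log2 fold change of 0.56 ± 0.27 (SE, edgeR adjusted p = 0.618). Arg/Arg replicate 1 lay among the Trp/Trp libraries. The other 4 members, Socs2, Socs4, Socs6 and Socs7, had log2 fold changes of 0.09 ± 0.33, -0.12 ± 0.28, -0.14 ± 0.23 and -0.13 ± 0.23 (SE), with overlapping libraries and edgeR adjusted p of at least 0.955. The common biological coefficient of variation was 0.28 in F4/80+ preparations and 0.101 in kidney. A p that misses the threshold does not show that the genotypes were alike.

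Marker sums of the F4/80+ preparations also differed between genotypes, with overlap and with 0 single markers called by edgeR (8 of 11 tested macrophage markers and 9 of 13 proximal tubule markers had an unadjusted p under 0.05). The macrophage list summed to 130, 193 and 220 CPM in Trp/Trp and 42.1, 51.8 and 151 CPM in Arg/Arg preparations (lowest to highest), and the highest Arg/Arg value was that of replicate 1. Distal nephron and collecting duct markers summed to 15739 to 25778 CPM in Trp/Trp and 7455 to 18452 CPM in Arg/Arg preparations, with 12 of 12 positive log2 fold changes (median 0.62). Fibroblast, pericyte and smooth muscle markers summed to 395 to 562 CPM in Trp/Trp and 160 to 433 CPM in Arg/Arg preparations, with 8 of 8 tested positive (median 0.67). Proximal tubule markers summed to 17368 to 31847 CPM in Trp/Trp and 26808 to 54348 CPM in Arg/Arg preparations, and immediate early genes to 12291 to 15761 CPM in Trp/Trp and 8430 to 13456 CPM in Arg/Arg preparations. Of these 24 immediate early genes 23 had a positive log2 fold change (median 0.40, all genes 0.0093) and 0 were called. The part of cell composition and of handling in the Socs1, Socs3 and Cish differences was not tested.

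**Figure D4:**
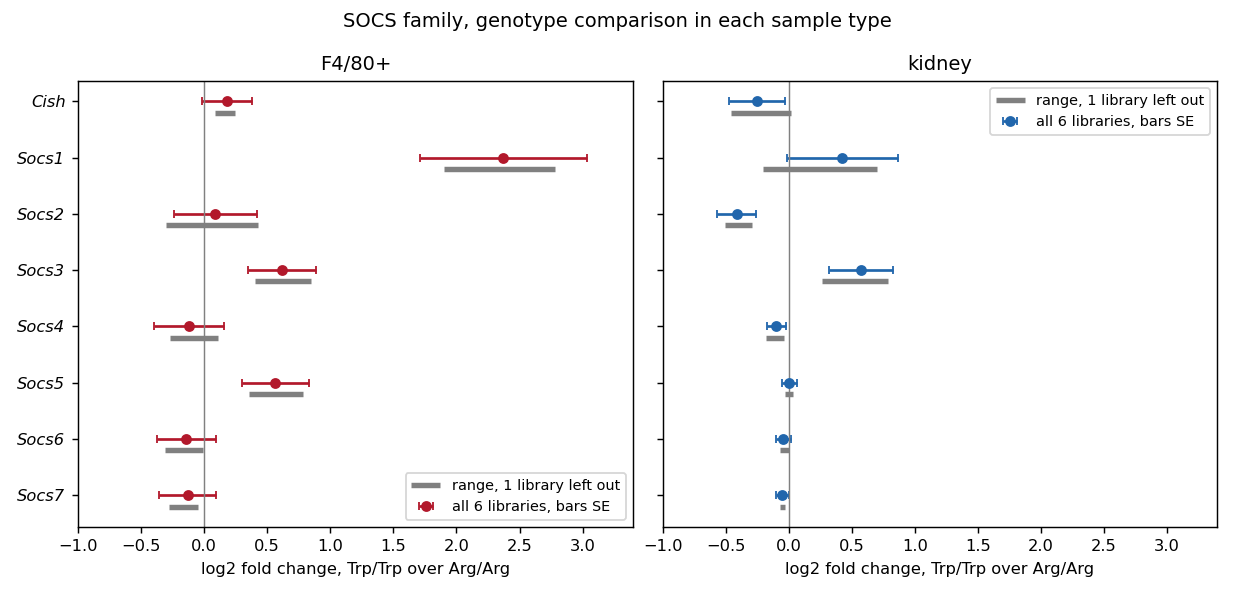
Log2 fold change of each SOCS family member, Trp/Trp over Arg/Arg, in F4/80+ preparations and in kidney. Points with bars are values and SE from all 6 libraries, and grey bars span the values with 1 library left out. Socs1 lies at 2.37 in F4/80+ preparations, with 1.90 to 2.78 when a library is left out, and Socs3 is at 0.62 in F4/80+ preparations and 0.57 in kidney.

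In whole kidney the same question gave smaller differences for most members. edgeR called 0 of 14464 genes (smallest adjusted p = 0.843), while 826 (5.71%) had an unadjusted p under 0.05, and DESeq2 called 15 genes, 0 of them members. Socs2 was the only member with an unadjusted p under 0.05 and the only one without overlap, 1 of 8 against 10.3% of all genes tested (3.67% lower). It was at 7.11, 6.30 and 5.06 CPM in Trp/Trp and 9.57, 7.14 and 7.83 CPM in Arg/Arg kidneys, with 7.11 and 7.14 CPM as the values on either side of the gap. The log2 fold change was -0.41 ± 0.16 (SE, edgeR adjusted p = 0.843).

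Socs3 was at 5.58, 2.83 and 3.82 CPM in Trp/Trp and 2.23, 2.84 and 3.01 CPM in Arg/Arg kidneys, a log2 fold change of 0.57 ± 0.25 (SE, edgeR adjusted p = 0.843). Trp/Trp replicate 1 was the highest, and without it the log2 fold change was 0.27 (edgeR adjusted p = 0.961). Socs1 had 0.43 ± 0.44 (SE, edgeR adjusted p = 0.904), with 1.79 CPM in Trp/Trp replicate 1 and 0.54 to 0.96 CPM in the other 5 kidneys. Without that library it was -0.21. That kidney also stood apart in its fibroblast, B and plasma cell and adipocyte markers, which summed to 871, 91.6 and 208 CPM there and to 415 to 447, 4.52 to 6.001 and 77.2 to 98.1 CPM in the other 5 kidneys. Adipocyte markers and other lists separated all Trp/Trp from all Arg/Arg kidneys. Adipocyte markers summed to 86.9 to 208 CPM in Trp/Trp and 77.2 to 84.8 CPM in Arg/Arg kidneys. Of 5 tested, 5 had a positive log2 fold change and an unadjusted p under 0.05, and 0 were called by edgeR. Macrophage markers summed to 274, 185 and 229 CPM in Trp/Trp and 166, 163 and 148 CPM in Arg/Arg kidneys, and 14 of 14 had a positive log2 fold change (median 0.57), 10 of them with an unadjusted p under 0.05 and 0 called by edgeR. T and NK cell markers summed to 10.7 to 18.1 CPM in Trp/Trp and 5.44 to 8.04 CPM in Arg/Arg kidneys, and dendritic cell markers to 32.9 to 49.7 CPM in Trp/Trp and 25.4 to 28.5 CPM in Arg/Arg kidneys. The part of these cell types in the Socs1, Socs2 and Socs3 values was not tested.

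Cish averaged 14.8 ± 2.91 CPM in Trp/Trp and 17.7 ± 5.76 CPM in Arg/Arg kidneys (SD, n = 3 each), a log2 fold change of -0.25 ± 0.22 (SE, edgeR adjusted p = 0.881). Socs4 to Socs7 were held within narrow bounds in kidney, with log2 fold changes of -0.10 ± 0.08, 0.01 ± 0.06, -0.04 ± 0.06 and -0.05 ± 0.05 (SE) in that order and edgeR adjusted p of at least 0.873. Their coefficients of variation within kidney groups were 1.94 to 10.2%.

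Whether the genotype difference depended on sample type was tested as an interaction over all 12 libraries. edgeR called 0 of 13578 genes (smallest adjusted p = 0.684), 921 genes (6.78%) had an unadjusted p under 0.05, Socs1 among them and no other member, and DESeq2 called 7 genes, 0 of them members. Socs1 had an interaction of 1.97 ± 0.80 (SE) on the log2 scale (edgeR adjusted p = 0.706), and the other 7 members had adjusted p of at least 0.725. Socs3 had an interaction of 0.02 ± 0.38 (SE), so its genotype difference in F4/80+ preparations was not told apart from that in kidney.

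The rest of the pathway was described from 7 lists, beside the background of 32.4% of genes higher and 31.8% lower in F4/80+ preparations. None of the genes of these lists was called by edgeR between genotypes in either sample type, while DESeq2 called Il2rb in kidney (adjusted p = 0.0169). Of 10 tested JAK kinase and STAT genes, 2 were called higher and 4 lower in F4/80+ preparations. The genes called higher were Stat3 (0.41 ± 0.14) and Jak1 (0.24 ± 0.09; log2 fold change ± SE). The genes called lower were Stat5b (-1.30 ± 0.08), Stat6 (-0.95 ± 0.08), Jak3 (-1.46 ± 0.20) and Tyk2 (-0.73 ± 0.10; log2 fold change ± SE). Stat5b encodes a STAT of the growth hormone and prolactin receptors, which Socs2 and Cish restrain. Of 27 receptors that signal through JAKs, 5 were higher and 10 lower. The prolactin receptor gene Prlr was 9.01-fold lower, the leptin receptor gene Lepr 8.70-fold lower, and Il6ra, whose signalling Socs3 limits, 5.13-fold lower, at 0.59 to 2.91 CPM in F4/80+ preparations and 8.17 to 14.7 CPM in kidney.

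Of 8 tested cytokine genes 3 were higher, namely Il15 (1.12 ± 0.13), Il7 (1.69 ± 0.25) and Lif (1.38 ± 0.36; log2 fold change ± SE), the last of which encodes a ligand of gp130, the receptor subunit that Socs3 binds. Il4 was not called (-0.78 ± 0.34, edgeR adjusted p = 0.0572), but was without scaling factors and by an exact permutation test (adjusted p = 0.0132). Of 28 STAT-responsive genes other than the family, 8 were higher and 8 lower. Irf1, a transcription factor gene, was 7.80-fold higher, Cebpd 8.99-fold higher and Junb, which is also among the immediate early genes, 5.17-fold higher, whereas Bcl2l1, a survival gene and STAT5 target, was 3.06-fold lower. STAT-responsive genes thus did not all follow Socs3, Cish and Socs2.

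Of 11 genes listed for the ubiquitin ligase that the SOCS box recruits, 2 were higher and 1 lower. The list holds enzymes that modify cullins as well as subunits, and the gene called lower, Ube2m, encodes such an enzyme. Cul5, the cullin of that ligase, had a log2 fold change of 0.69 ± 0.12 and Cul2 0.30 ± 0.10, while Ube2m, which conjugates NEDD8 to cullins, had -2.86 ± 0.16 (SE). Ube2f, the NEDD8 conjugating enzyme of Cul5, was not called (0.17 ± 0.08, edgeR adjusted p = 0.0792). Of 16 genes listed as other regulators of JAK signalling, not all of them inhibitors, 4 were higher and 8 lower. Among them were Ptpn2 (1.12 ± 0.13), a phosphatase of JAK and STAT proteins, Pias1 (0.77 ± 0.08), Sirpa (-1.31 ± 0.10) and Sh2b1 (-1.66 ± 0.13; log2 fold change ± SE). Sh2b1 is a relative of the edited gene and is not read here as an inhibitor. Of 14 receptor tyrosine kinase and insulin pathway genes, 8 were higher and 4 lower. These included Kit, which Socs6 binds, at 1.49 ± 0.13, Csf1r at -1.36 ± 0.11, Grb2 at -1.09 ± 0.09 and Pdgfrb at -2.31 ± 0.24 (log2 fold change ± SE). Csf1r is the growth factor receptor of macrophages.

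**Figure D5:**
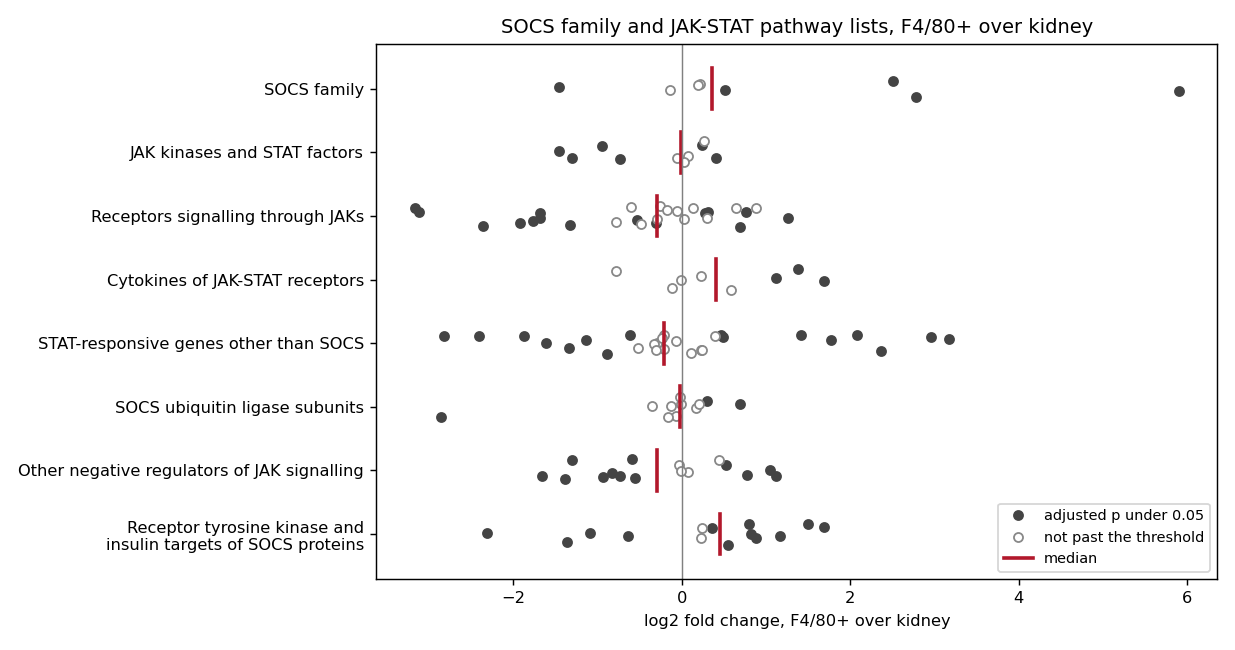
Log2 fold change, F4/80+ preparations over kidney, of the SOCS family members and of the genes of 7 pathway lists. Filled points passed an edgeR adjusted p of 0.05, open points did not, and red lines are medians. Socs3, at 5.91, lies beyond every gene of the other lists, and the median of the 8 members is 0.36.

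Between genotypes, the smallest unadjusted p-values among these lists were those of Il2rb (1.17 ± 0.23) and Osmr (0.47 ± 0.11) in kidney and Lcn2 (1.26 ± 0.35) and Il5ra (-1.42 ± 0.42) in F4/80+ preparations (log2 fold change, Trp/Trp over Arg/Arg, ± SE), with edgeR adjusted p of 0.843 for the kidney genes and 0.605 for the F4/80+ genes. Osmr encodes the oncostatin M receptor, a partner of gp130, and Lcn2 a STAT3-responsive protein of injured tubules. In F4/80+ preparations 20 of 26 STAT-responsive genes had positive log2 fold changes, with a median of 0.43, while that of all genes was 0.0093. So did 23 of 24 immediate early genes (median 0.40) and 12 of 12 distal nephron markers (0.62). Among macrophage markers 11 of 11 tested did (1.29), and among fibroblast markers 8 of 8 tested (0.67). Of 13 proximal tubule markers 0 did (-0.96). The part of cell composition and of handling in the STAT-responsive genes was not tested. In kidney 25 of 32 tested receptors that signal through JAKs had positive log2 fold changes (median 0.14, all genes 0.0021). Of these receptors 10 had an unadjusted p under 0.05 by edgeR, against 5.71% of all genes, and 0 were called. Macrophage markers in kidney were positive for 14 of 14 (median 0.57). The part of cell composition in the kidney receptor values was not tested.

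The genes whose levels followed each member were sought by Pearson's r of log2(CPM + 0.5) across 12 libraries after the mean of each sample type was removed, among 10224 genes. They are given as a description, since libraries share their composition and depth across genes and the F4/80+ preparations set most of the spread. Socs5 was most like B4galt6 (r = 0.995), Socs4 most like Bzw1 (0.98) and Socs6 most like Abi1 (0.98). Socs2 was most like Ccdc71l (0.95), Socs7 most like Pde4d (0.93) and Cish most like Pomgnt2 (0.79). The next genes were Hoxd8 and Cavin2 for Socs5, Gbe1 and Nek7 for Socs4, Ppp1cb and Bmt2 for Socs6, Ddhd1 and Sytl4 for Socs2, Meaf6 and Abcc10 for Socs7, and Nfil3 and Aagab for Cish. Socs1 and Socs3 were below 5 CPM on average in a sample type and were not compared.

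The members lie on 8 separate places of the genome (mm10, coordinates as in the tables). Cish (ENSMUSG00000032578.7) spans chr9:107296026-107302784, Socs1 (ENSMUSG00000038037.5) chr16:10782240-10785536, Socs2 (ENSMUSG00000020027.18) chr10:95385362-95417180, and Socs3 (ENSMUSG00000053113.3) chr11:117966079-117970047. Socs4 (ENSMUSG00000048379.9) spans chr14:47276931-47296102, Socs5 (ENSMUSG00000037104.9) chr17:87107679-87137839, Socs6 (ENSMUSG00000056153.15) chr18:88665224-88927481, and Socs7 (ENSMUSG00000038485.6) chr11:97362435-97398542. Socs3 and Socs7, which differed in opposite directions between sample types, share chromosome 11.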

How the data were processed

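Per the labels' protocols, poly(A)-selected libraries were made from whole kidney and from bead-isolated F4/80+ cells. The authors deposited raw counts per gene and library, in a table per sample type; STAR, DRAGEN, DESeq2 and the build mm10 stand in the submitters' processing notes, without roles. Each deposited table also held log2 fold changes, fold changes as a ratio, SE and Wald statistics (score columns), p-values and a mean normalized count signal. By its sign against the counts, the deposited kidney log2 fold change had Arg/Arg on top and was reversed here.

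Counts were fitted with edgeR 4.0.16 in R 4.3.3 (quasi-likelihood test, TMM, filterByExpr with minimum count 10, Benjamini-Hochberg, threshold 0.05), with DESeq2 1.42.0 as an alternative. Each table was fitted alone for genotype, and nuclear protein-coding genes of both tables were fitted together for sample type and the interaction. The SE is the log2 fold change divided by the root of the F statistic. Samples are labelled biological replicates, and p-values measure the spread between them. The scripts were tested on simulated data.

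The members and lists were chosen with earlier results of these data known. The text names every member, Sh2b3, genes of smallest p in each pathway list, the other JAK and STAT genes called between sample types, and the 3 genes most like each member. Protein sequences are not used here.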

Additional observations from a re-analysis of the deposited data

Results flagged for a closer look

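Socs1 in Trp/Trp kidney replicate 1 was at 1.79 CPM (62 counts), while the other 5 kidney libraries lay between 0.54 and 0.96 CPM. The gap was 0.667 of the range of the 6 kidney libraries, which is past the 95% value of Dixon's test. It was the only such case among 16 sets of 6 libraries (8 members, 2 sample types), and chance gives about 1 in 20.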

How the results depend on the processing

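Of the recomputed log2 fold changes of named genes, 1299 kept direction and side of the threshold, 21 reversed, 6 lost their call and 6 gained one. Those of Stat3 and Jak1 between sample types were not among them. DESeq2 called 15 genes between genotypes in kidney, 14 in F4/80+ preparations and 7 in the interaction, where edgeR called 0 in each, and 0 of them were members; the cause was not tested. The interaction count was 0 to 580 with 1 library left out, namely 580 without Arg/Arg F4/80+ replicate 1 and 1 without Trp/Trp F4/80+ replicate 1. Between sample types, 4 or 5 members were called under every setting. Within Arg/Arg libraries alone the log2 fold change between sample types was -1.03 for Socs1 and -0.063 for Socs5, which reversed both. With 1 library left out, signs turned within these ranges: between genotypes in kidney, Socs1 -0.21 to 0.70, Socs5 -0.027 to 0.037 and Cish -0.45 to 0.019; in F4/80+ preparations, Socs2 -0.30 to 0.42 and Socs4 -0.27 to 0.11; between sample types, Socs1 -0.040 to 0.47; in the interaction, Socs3 -0.20 to 0.31, Socs4 -0.18 to 0.22 and Socs6 -0.32 to 0.059. None of these was called. Cul2 lost its call without scaling factors (adjusted p = 0.151) and within Trp/Trp libraries (0.203) and by the exact permutation test, Lif within Arg/Arg libraries (0.0661), and DESeq2 called Il2rb in kidney (adjusted p = 0.0169). Il4, not called by the main test between sample types, was called without scaling factors, by the exact permutation test (adjusted p = 0.0132) and without Arg/Arg F4/80+ replicate 3 (0.0203), and Ube2f by DESeq2 (0.0187) and without Arg/Arg F4/80+ replicate 2 (0.0448). Leaving out the scaling factor moved the median of all genes between sample types to -0.13 (-0.0037 with TMM).

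With the replicate block (replicate number as a term), 0 genes were called between genotypes in kidney, 0 in F4/80+ preparations, 0 in the interaction and 8408 between sample types (8716 without it). Same-numbered libraries correlated at -0.31, -0.49 and 0.18 in F4/80+ preparations and at -0.08, -0.02 and -0.01 in kidney (deviations from group means). No pairing by number was seen, but so few correlations cannot show that it was absent. Over the counts of all genes, mitochondrial ones included, Socs3 averaged 37.7 CPM in F4/80+ preparations and 3.10 CPM in kidney, Cish 16.8 and 14.9, Socs2 8.53 and 6.55, Socs1 0.23 and 0.84, Socs4 12.6 and 46.9, Socs5 7.26 and 32.4, Socs6 5.56 and 31.9, and Socs7 4.38 and 60.3. This turned the direction of Socs1, Socs4 and Socs5, and within Arg/Arg libraries that of Cish (14.4 in F4/80+ preparations and 16.2 in kidney). Low counts of Socs1, 1 to 22 per F4/80+ library, limited its precision.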
